A study of Homo sapiens with 12 samples.

Results

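The genes of 9 receptors for blood cytokines were followed through early human blood cell formation. They encode the receptors or receptor chains for erythropoietin (EPOR), FLT3 ligand (FLT3), interleukin 3 (IL3RA), GM-CSF (CSF2RA), the shared beta chain of interleukin 3, interleukin 5 and GM-CSF (CSF2RB), G-CSF (CSF3R), interleukin 6 (IL6R and its signal chain gp130, encoded by IL6ST) and interleukin 7 (IL7R). Members were taken by symbol, and all 9 were found among 56593 distinct symbols, on 11 lines, because IL3RA and CSF2RA each stood on 2 lines. RNA-seq had been run on undifferentiated H1 cells, an established human embryonic stem cell line, and on 3 populations derived from it: APLNR+ cells (mesoderm, apelin receptor) at day 2, CD31+CD34+ cells (hemogenic endothelial progenitors) at day 5 and CD43+ cells (hematopoietic progenitors) at day 8. Each of the 4 was represented by 3 libraries, 12 in all. The labels name no mutation or transgene in any group. Differentiation used activin A with BMP4 for 2 days and then VEGF with bFGF. By their days, APLNR+ cells were taken at this switch of factors, and CD31+CD34+ and CD43+ cells after it. The switch therefore cannot be told apart from the step from APLNR+ to CD31+CD34+. None of these added factors is a ligand of the 9 receptors. A single cell line was used. The study's methods speak of independent experiments in general, without tying them to these libraries, and the labels do not say whether the 3 libraries of a population came from separate cultures, so p values measure only the spread between these libraries, which may be technical.

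Most of these receptors have no enzyme activity of their own. Binding of the cytokine brings chains together, JAK kinases bound to the cell-side tails phosphorylate each other and the receptor, and STAT factors dock there, are phosphorylated and enter the nucleus. FLT3 is the exception, being itself a tyrosine kinase. Several chains are shared: gp130 serves interleukin 6, interleukin 11, LIF, oncostatin M and related cytokines, and the CSF2RB chain serves 3 ligand-binding alpha chains. In blood formation EPOR is known for red cell survival, CSF3R for neutrophil production, CSF2RB with its alpha chains for myeloid growth, IL7R for lymphoid precursors and FLT3 for early multilineage and dendritic progenitors.

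Levels are given in FPKM, a unit that divides the fragments of a gene by its length and by the size of the library, so they can be set side by side between genes. The absolute depth is unknown. Relative depth, read from the spacing of low values with CD43+ replicate 3 set to 1, spanned 0.564 to 1.25 (both ends in CD31+CD34+), and replicate 1 was the shallowest library of each population. A value of 0 needs care, since 6 of the 12 libraries list EEF1A1, a translation factor of all cells, at 0. These are replicates 2 and 3 of H1, APLNR+ and CD43+. The summed FPKM of a library also differed, from 568036 (CD31+CD34+ replicate 2) to 1.58e+06 (APLNR+ replicate 2). In CD31+CD34+ replicate 1 it was 1.44e+06, so the libraries did not share a common sum. The reason was not tested. The summed level of 10 pluripotency markers lay at 2671 to 2783 FPKM in H1 and 915 to 1008 FPKM in APLNR+. It lay at 375 to 461 FPKM in CD31+CD34+ and 178 to 208 FPKM in CD43+. The sum of 11 endothelial markers lay at 756 to 1012 FPKM in CD31+CD34+ and 429 to 550 FPKM in CD43+. Those of 14 erythroid and 10 megakaryocyte markers lay at 1941 to 2413 and 732 to 792 FPKM in CD43+. ELANE, a neutrophil granule gene, was listed at 0 in every library, CD43+ included, and 11 of 11 endothelial markers were still at 1 FPKM or more on average there. The mesoderm label of APLNR+ cells was not checked with a marker list.

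RefSeq promoter sequences (GRCh38.p14) were available for 8 of the 9 genes, and the 250 bases before the start site are shown for 5 of them. EPOR, IL6ST and CSF3R are shown because their levels carry the results below, IL7R because it came on late, and IL3RA because it stands at the same positions of X and Y. Capitals mark every match on either strand to a set of short motifs. The GATA motif was AGATAA, with TGATAA as its variant, or either of them ending in G (AGATAG as one, TGATAG as the other). The RUNX motif was spelled TGTGGT, while the ETS motif was spelled GAGGAA and the GC box GGGCGG. The motifs do not overlap each other in these windows.
EPOR, chr19:11384315-11384564, minus strand: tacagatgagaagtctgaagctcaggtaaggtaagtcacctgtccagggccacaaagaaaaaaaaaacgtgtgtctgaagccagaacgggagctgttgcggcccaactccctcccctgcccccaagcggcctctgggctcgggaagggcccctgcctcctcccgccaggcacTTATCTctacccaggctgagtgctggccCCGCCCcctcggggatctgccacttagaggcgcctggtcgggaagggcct
IL6ST, chr5:55994964-55995213, minus strand: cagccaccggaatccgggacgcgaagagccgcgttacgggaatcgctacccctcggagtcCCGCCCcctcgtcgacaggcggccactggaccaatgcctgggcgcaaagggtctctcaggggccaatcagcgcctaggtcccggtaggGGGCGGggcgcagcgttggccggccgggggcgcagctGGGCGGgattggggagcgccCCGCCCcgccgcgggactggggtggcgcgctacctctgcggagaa
CSF3R, chr1:36482914-36483163, minus strand: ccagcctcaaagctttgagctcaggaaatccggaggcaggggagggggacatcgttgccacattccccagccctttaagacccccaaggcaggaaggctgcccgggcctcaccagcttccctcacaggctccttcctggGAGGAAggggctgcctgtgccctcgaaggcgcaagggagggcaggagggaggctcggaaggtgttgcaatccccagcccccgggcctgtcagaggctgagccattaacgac
IL7R, chr5:35856641-35856890, plus strand: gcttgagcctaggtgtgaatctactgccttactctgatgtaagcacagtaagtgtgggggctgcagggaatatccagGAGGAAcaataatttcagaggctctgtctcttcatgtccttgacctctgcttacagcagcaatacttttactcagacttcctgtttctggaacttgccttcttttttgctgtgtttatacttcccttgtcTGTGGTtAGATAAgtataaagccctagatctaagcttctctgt
IL3RA, chrX:1336535-1336784 and the same positions of chrY, plus strand: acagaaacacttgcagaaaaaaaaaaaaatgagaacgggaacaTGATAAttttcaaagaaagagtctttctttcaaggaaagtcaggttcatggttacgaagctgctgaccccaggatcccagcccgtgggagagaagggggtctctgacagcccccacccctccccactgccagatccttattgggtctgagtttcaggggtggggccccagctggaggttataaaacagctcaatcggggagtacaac
The EPOR window held a GATA match on the opposite strand at bases -78 to -73 before the start and a GC box at -50 to -45. IL6ST held 4 GC boxes and no match to the other 3 families. The IL7R window held a RUNX match at -43 to -38, a GATA match at -36 to -31 and an ETS match at -173 to -168. CSF3R, of which 1 of 2 listed starts is shown, held an ETS match at -111 to -106 there and no match at the other start. IL3RA held a GATA match at -207 to -202. The bases after its start were not found in a transcript, unlike those of the other genes, so this position is less sure. Of 35116 promoters of the same length, 22.3% held a GATA match, 11.0% a RUNX match, 23.6% an ETS match and 42.6% a GC box. A match describes the letters and not a bound site.

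Among the interleukin 6 receptor chains, the signal chain moved widely and the binding chain little. IL6ST stood at 1.96, 3.78 and 2.93 FPKM in the H1 libraries (replicates 1 to 3), at 27.7, 43.9 and 43.9 in APLNR+, at 6.73, 8.60 and 10.7 in CD31+CD34+ and at 13.3, 16.9 and 26.5 in CD43+. No 2 populations overlapped, although the highest CD43+ library came close to the lowest APLNR+ library. At the 3 consecutive steps, separation in the same direction held for 26.1%, 38.9% and 28.0% of all tested genes. The share with all 4 populations apart was not counted. The mean rose 13.3-fold from H1 (2.89 ± 0.911 FPKM, SD, n = 3) to APLNR+ (38.5 ± 9.39), a change of 3.34 ± 0.27 on the log2(FPKM + 1) scale (SE, limma adjusted p 5.02e-07). It then fell by 2.02 to CD31+CD34+ (8.66 ± 1.96 FPKM, limma adjusted p 2.35e-05) and rose by 1.01 to CD43+ (18.9 ± 6.82 FPKM, limma adjusted p 0.00677). The last rise sat at the 2-fold limit: it was 0.86 without CD31+CD34+ replicate 1 and 0.75 without CD43+ replicate 3. Replicate 1 was the lowest library of every population, and within replicate 1 alone the 3 steps measured 3.28, -1.89 and 0.89 on the log2(FPKM + 1) scale, against 3.37, -2.09 and 1.07 in replicates 2 and 3. In bulk RNA, more cells with the transcript cannot be told apart from more transcript per cell.

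**Figure D1:**
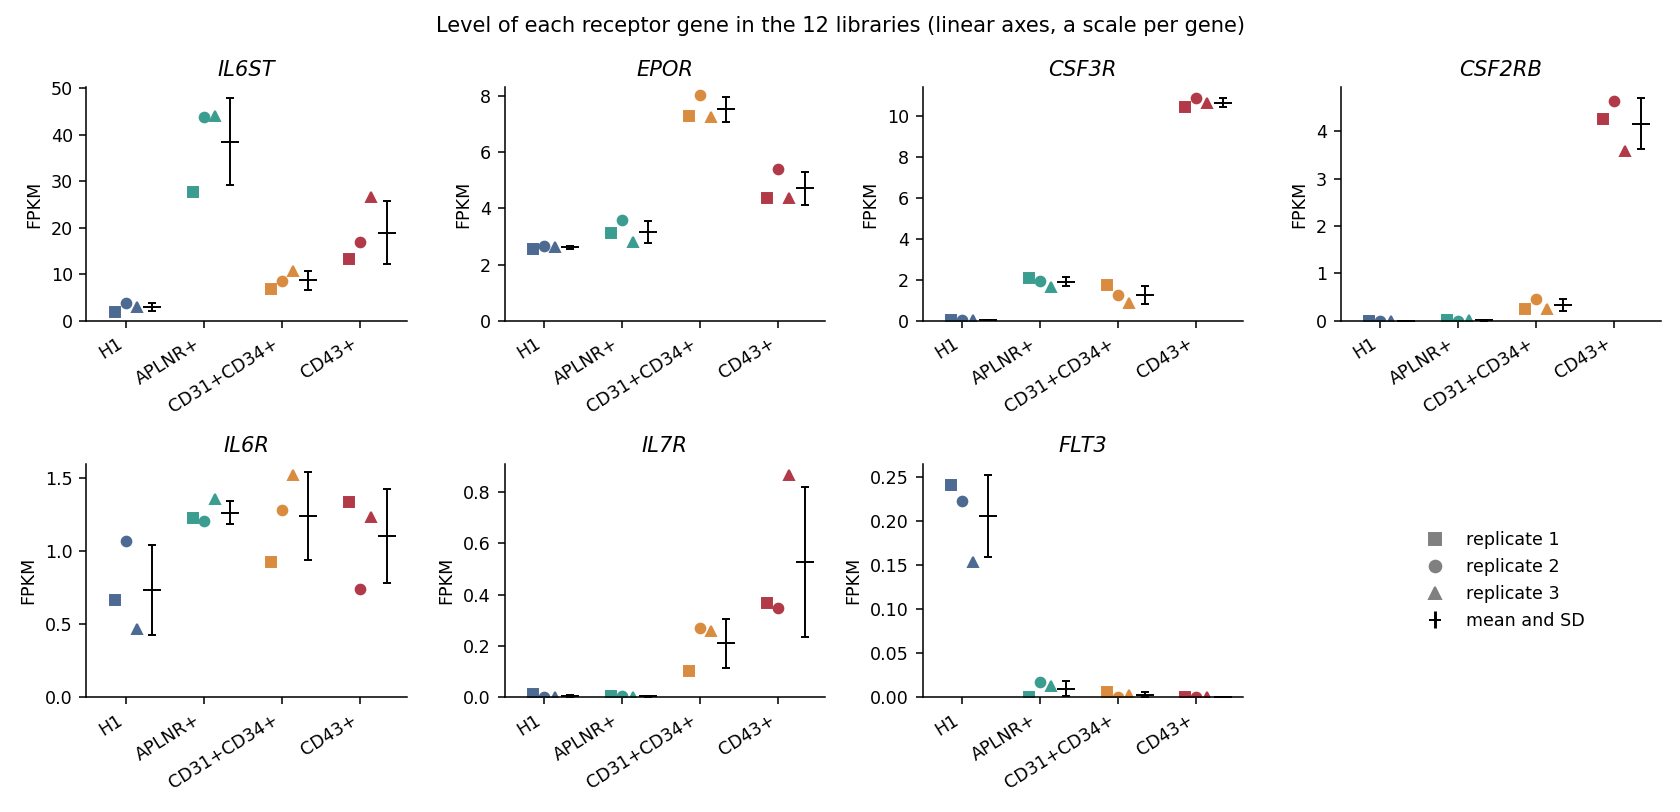
FPKM of 7 receptor genes in the 4 populations, with a point per library (square, circle and triangle for replicates 1, 2 and 3), the mean as a black dash and the SD as the bar (n = 3). Axes are linear, start at 0 and differ between panels. IL6ST is highest in APLNR+, EPOR in CD31+CD34+, CSF3R and CSF2RB in CD43+; IL3RA and CSF2RA, at 0 throughout, are left out.

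IL6R, which binds interleukin 6 before gp130 joins, was low in all 4 populations. Its libraries read 0.669, 1.07 and 0.469 FPKM in H1, 1.23, 1.21 and 1.36 in APLNR+, 0.927, 1.28 and 1.52 in CD31+CD34+ and 1.34, 0.740 and 1.24 in CD43+. All 3 APLNR+ libraries lay above those of H1 and the later populations overlapped. The step from H1 to APLNR+ was 0.40 ± 0.15 on the log2 scale (limma adjusted p 0.0386), under the 2-fold limit, and the next steps were -0.02 and -0.10 (limma adjusted p 0.904 and 0.62), with signs that turned when single libraries were left out. The FPKM ratio of IL6ST to IL6R was 2.93, 3.52 and 6.25 in H1, 22.5, 36.3 and 32.4 in APLNR+, 7.26, 6.71 and 6.99 in CD31+CD34+ and 9.95, 22.8 and 21.4 in CD43+. The ratios of consecutive populations did not overlap, with an exact two-sided permutation p of 0.1 for each step, which is the smallest that 3 against 3 libraries can give. Antisense transcripts annotated over IL6ST and its pseudogene copy IL6STP1 reached 0.0180 FPKM at most.

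Other chains that pair with gp130 had their own courses. LIFR, the LIF receptor chain, rose from 3.98 ± 0.496 FPKM to 40.3 ± 4.21 between H1 and APLNR+ (log2 change 3.05, limma adjusted p 3.12e-09), then stood at 19.5 ± 3.29 and 8.33 ± 1.09 FPKM, so that it peaked in the same population as IL6ST and had no second rise. IL11RA, which binds interleukin 11, climbed from 2.55 ± 0.450 FPKM in APLNR+ to 13.5 ± 1.53 in CD31+CD34+ (log2 change 2.03, limma adjusted p 4.15e-08) and stood at 23.7 ± 2.96 in CD43+. At 20.4 FPKM, the lowest CD43+ library of IL11RA was above the highest of IL6R, 1.34 FPKM. CNTFR, the CNTF-binding chain, stood at 4.33 ± 0.558 FPKM in CD31+CD34+ and fell to 0.559 ± 0.106 in CD43+ (log2 change -1.77, limma adjusted p 6.89e-08). OSMR and IL27RA, picked after their values were seen to complete the family, peaked at 1.48 ± 0.372 FPKM in CD31+CD34+ and 12.9 ± 1.73 FPKM in CD43+.

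**Figure D2:**
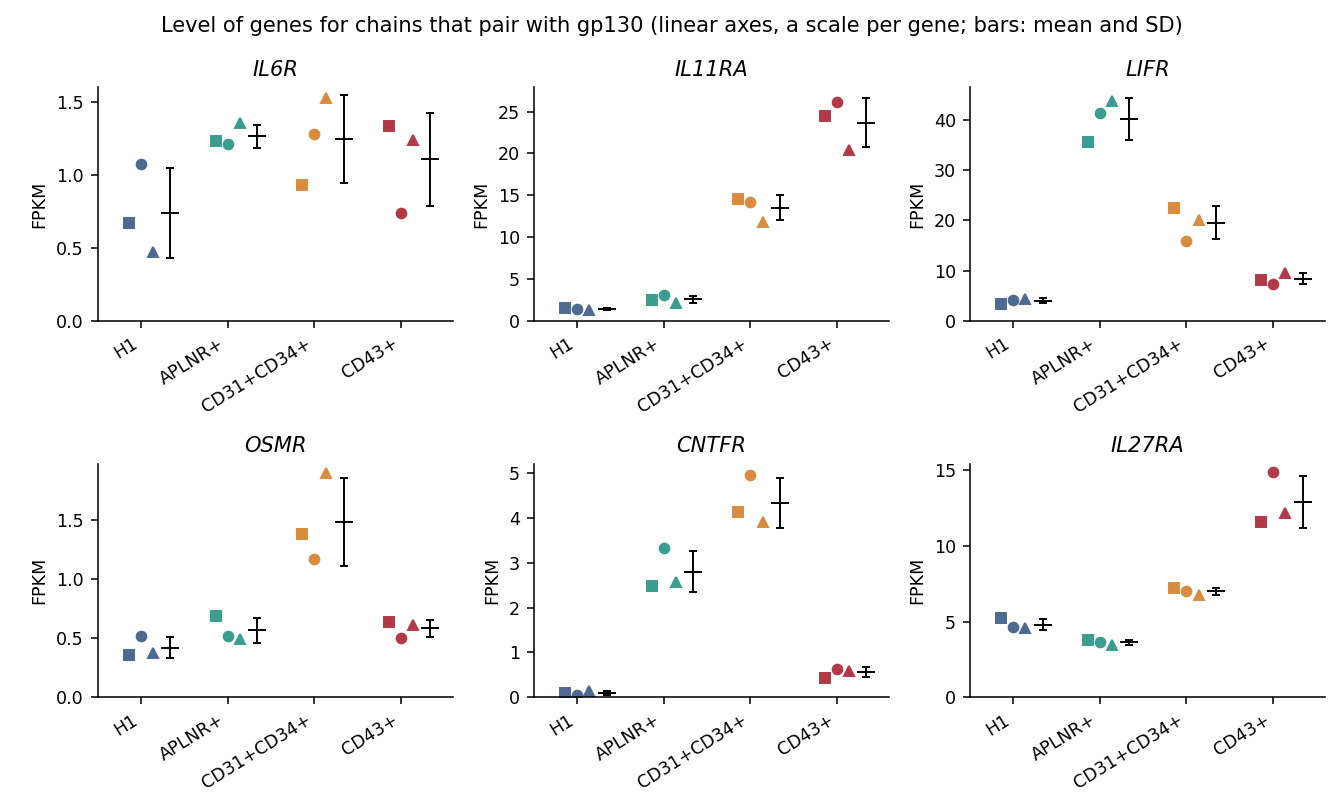
FPKM of IL6R and 5 other chains that signal with gp130, by population, with a point per library, the mean and the SD (n = 3); axes are linear, start at 0 and differ between panels. LIFR is highest in APLNR+ (35.6 to 43.8 FPKM), IL11RA in CD43+ (20.4 to 26.2 FPKM) and CNTFR in CD31+CD34+ (3.90 to 4.96 FPKM).

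EPOR was present from the start and peaked before the CD43+ stage. It stood at 2.54, 2.66 and 2.63 FPKM in H1, at 3.11, 3.59 and 2.82 in APLNR+, at 7.28, 8.04 and 7.27 in CD31+CD34+ and at 4.38, 5.40 and 4.39 in CD43+. The populations did not overlap and kept the order H1, APLNR+, CD43+, CD31+CD34+, but the change between H1 and APLNR+, neighbours in that order, was not called (log2 change 0.21 ± 0.10, limma adjusted p 0.108). At the consecutive steps, separation in the same direction as EPOR held for 26.1%, 36.9% and 30.0% of all tested genes. From APLNR+ (3.17 ± 0.388 FPKM) to CD31+CD34+ (7.53 ± 0.442) the mean rose 2.37-fold, a log2 change of 1.04 ± 0.10 (limma adjusted p 2.15e-06). This call too lay at the 2-fold limit, and the change was 0.97 without APLNR+ replicate 3 and 0.99 without CD31+CD34+ replicate 2. The step to CD43+ (4.73 ± 0.588 FPKM) was -0.58 (limma adjusted p 0.000507), under the limit. At that step the summed level of the 14 erythroid markers went from 33.2 to 39.9 FPKM up to 1941 to 2413 FPKM, while EPOR was lower in every CD43+ library than in any CD31+CD34+ library. The part of the marker-bearing cells in this was not tested. RGL3, a gene on the same strand, shares 2 bases with EPOR in the GENCODE 29 annotation. RGL3 averaged 6.58 ± 0.251 FPKM in H1 cells and then 2.60 ± 0.0405, 1.90 ± 0.617 and 1.58 ± 1.00 FPKM along the 3 derived populations. Its part in the level of EPOR was not tested.

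CSF3R appeared in mesoderm and again, higher, in CD43+ cells. The 3 H1 libraries read 0.0135, 0.0114 and 0.0178 FPKM, the APLNR+ libraries 2.09, 1.94 and 1.66, the CD31+CD34+ libraries 1.73, 1.25 and 0.854, and the CD43+ libraries 10.4, 10.9 and 10.7. APLNR+ and CD31+CD34+ overlapped and every CD43+ library lay far above them. The log2 change from H1 to APLNR+ was 1.51 ± 0.12 (limma adjusted p 6.94e-07), and 4.12 with a pseudocount of 0.1 in place of 1, since the H1 values are close to 0. The next step was -0.36 (limma adjusted p 0.0196), under the 2-fold limit. CD43+ cells (10.7 ± 0.217 FPKM) stood 8.34-fold above CD31+CD34+ cells (1.28 ± 0.437), a log2 change of 2.37 ± 0.12 (limma adjusted p 1.68e-08). The 13 myeloid markers summed to 5.08 to 6.45 FPKM in CD31+CD34+ and to 78.4 to 113 FPKM in CD43+, where 6 of the 13 averaged 1 FPKM or more and ELANE was at 0. Their part in the level of CSF3R was not tested.

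CSF2RB was a late gene. It was listed at 0 in the 3 H1 libraries, at 0.0205, 0 and 0.0119 FPKM in APLNR+, at 0.249, 0.468 and 0.256 in CD31+CD34+ and at 4.26, 4.64 and 3.58 in CD43+. All CD31+CD34+ libraries lay above APLNR+ and all CD43+ libraries above CD31+CD34+. The mean of CD43+ (4.16 ± 0.537 FPKM) was 12.8-fold that of CD31+CD34+ (0.324 ± 0.124), a ratio given as a description. CSF2RB entered the test only through its CD43+ libraries, so that a difference there was required by the filter on low values, and it left the test whenever a CD43+ library was left out. The earlier step from APLNR+ to CD31+CD34+ was 0.39 (limma adjusted p 0.00281) with the pseudocount of 1 and 1.90 (limma adjusted p 1.84e-05) with 0.1. Its pseudogene copy CSF2RBP1 was at 0 in every library.

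The alpha chains that pair with CSF2RB could not be read. IL3RA and CSF2RA were listed at 0 on both of their lines in all 12 libraries. Both lie in a pseudoautosomal region, one of the stretches that the X and Y chromosomes share at their ends, and the 250 bases printed for IL3RA are the same on X and Y in 250 of 250 positions. The same zero ran through these regions: of 18 protein-coding pseudoautosomal genes found in the table, all on 2 lines, 16 were at 0 in all libraries and 0 reached 1 FPKM. The highest value was 0.0567 FPKM, for CD99, and SLC25A6, a mitochondrial carrier gene that is widely expressed, was at 0. Of the other protein-coding symbols, 1407 of 19462 (7.23%) were at 0 throughout. A level of 0 for IL3RA and CSF2RA can therefore not be read as absence, and the part of the 2 copies in it was not tested. The receptor chains CRLF2, from the same region, and IL9R, from the one at the other end of the chromosomes, were at 0 as well. IL5RA, the third alpha chain, is in neither region and read 0.0699 to 0.223 FPKM in CD43+, and was looked up after the others were seen.

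IL7R and FLT3 never reached 1 FPKM and did not enter the main test. IL7R read 0.0112, 0 and 0 FPKM in H1, 0.00346, 0.00442 and 0.00208 in APLNR+, 0.101, 0.272 and 0.259 in CD31+CD34+ and 0.368, 0.349 and 0.866 in CD43+. CD31+CD34+ libraries all lay above APLNR+ and CD43+ libraries all above CD31+CD34+, as for 7.12% and 7.25% of the genes that missed the filter, and CD43+ also above H1 (9.1%). Without the filter the change from H1 to CD43+ was 0.59 ± 0.11 on the log2(FPKM + 1) scale (limma adjusted p 0.00135), while the single steps gave 0.27 (limma adjusted p 0.0858) and 0.32 (limma adjusted p 0.0586). Its partner chain IL2RG, looked up afterwards, averaged 0.247 ± 0.131 FPKM in CD43+. The 13 lymphoid markers summed to 31.8 to 37.1 FPKM in CD31+CD34+ and 22.8 to 25.2 FPKM in CD43+, and the defining genes MS4A1, RAG2 and DNTT were at 0 in CD43+. Other lymphoid markers were present there: CD79B, a B cell receptor chain, averaged 16.8 ± 1.32 FPKM (32.4 ± 2.53 in CD31+CD34+), CD7, a T cell surface protein, 3.62 ± 0.0946 (0.173 ± 0.0436) and CD3D, a T cell receptor chain, 2.25 ± 0.0251 (1.54 ± 1.18). Their part in the level of IL7R was not tested.

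FLT3 ran the other way. It read 0.241, 0.223 and 0.153 FPKM in H1, 0, 0.0172 and 0.0127 in APLNR+, 0.00603, 0 and 0.00296 in CD31+CD34+ and 0 in all 3 CD43+ libraries. Every H1 library lay above every later library. Without the filter the step from H1 to APLNR+ was -0.26 ± 0.02 (limma adjusted p 1.87e-05) and CD43+ against H1 -0.27 (limma adjusted p 5.73e-06), both far under the 2-fold limit on this scale. Among genes that missed the filter, every APLNR+ library lay below every H1 library in 12.9%, and every CD43+ library below every H1 library in 17.4%.

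Of the 9 genes, 5 passed the filter (at least 1 FPKM in at least 3 libraries) and were tested with the other genes, 14840 in all. Calls required a limma adjusted p below 0.05 together with a 2-fold change or more. From H1 to APLNR+ cells 2 of the 5 were called, IL6ST and CSF3R, both raised, where 15.9% of all tested genes were called, 8.3% raised and 7.62% lowered. At the step to CD31+CD34+ cells EPOR was raised and IL6ST lowered, in a comparison where 29.6% of genes were called, 12.5% raised and 17.1% lowered. In CD43+ against CD31+CD34+ cells CSF3R and IL6ST were raised, against 14.4% of genes called, 5.58% raised and 8.79% lowered. CSF3R and IL6ST were also raised in CD43+ against H1 (3.52 and 2.33 on the log2 scale), where 37.1% of genes were called, 14.6% raised and 22.5% lowered. CSF2RB met the call in both CD43+ comparisons as well, but its entry through the CD43+ libraries required this, and nothing is read from it. These comparisons share libraries: APLNR+ and CD31+CD34+ enter 2 steps each, and the last comparison reuses H1 and CD43+. IL6R was called in none of the 4.

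Separation of the libraries can be counted without a model. Every APLNR+ library lay above every H1 library for 4 of the 5 tested receptors (EPOR, CSF3R, IL6R and IL6ST), as for 26.1% of all tested genes. CD31+CD34+ libraries lay above APLNR+ libraries for EPOR and CSF2RB (36.9% of genes) and below them for IL6ST (38.9%). At the last step CD43+ libraries lay above for CSF3R and IL6ST (28.0% of genes) and below for EPOR (30.0%), and against H1 they lay above for EPOR, CSF3R and IL6ST (33.9%). CSF2RB, for which the filter required it, is left out of the CD43+ counts.

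**Figure D3:**
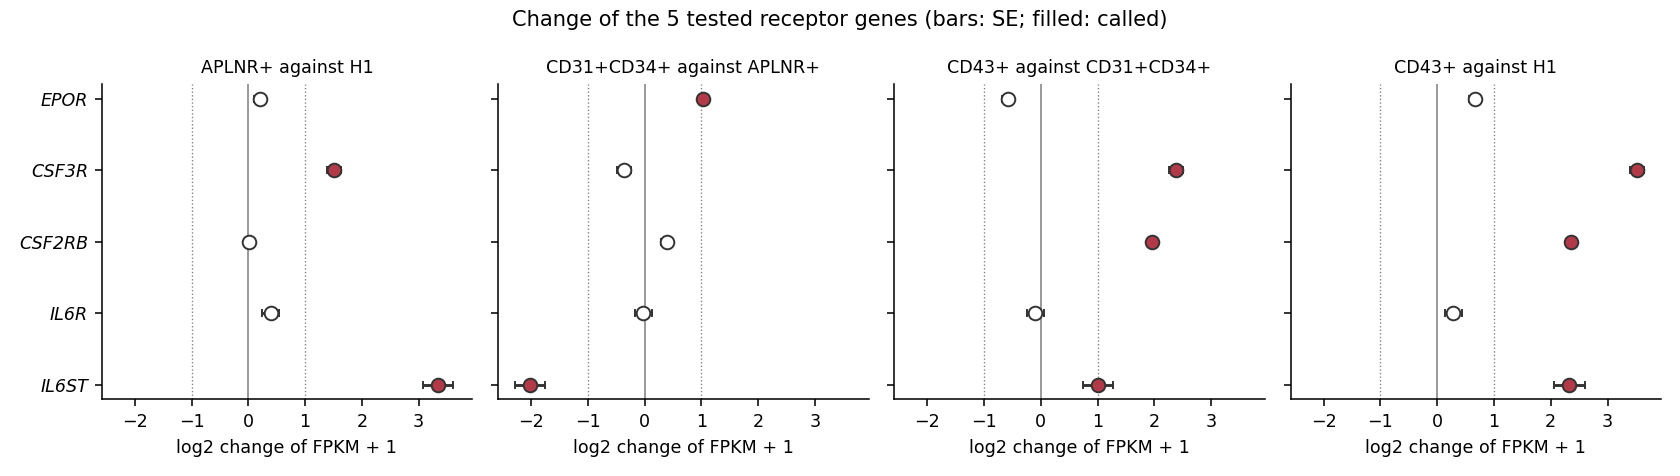
Change of the 5 tested receptor genes in 4 comparisons, as the difference of mean log2(FPKM + 1) with its SE (bars, some smaller than the point); filled points were called and dotted lines mark a 2-fold change. IL6ST is raised, lowered and raised again along the steps, and EPOR and IL6ST sit on the 2-fold line in the second and the third step; the filled CSF2RB points of the CD43+ comparisons follow from the filter.

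The genes downstream of the receptors were described by list, with counts to be read against the shares of all genes called in the same comparisons, and with the range of each count over the alternatives. Of 11 JAK kinase and STAT factor genes 10 were tested. From APLNR+ to CD31+CD34+ cells 6 were raised (JAK1, JAK3, TYK2, STAT2, STAT3 and STAT5A; 5 to 7) and 0 lowered (1 with a pseudocount of 0.1), with a list median of 1.19 on the log2 scale against -0.01 for all genes. STAT5A, which EPOR, CSF2RB and IL7R use, averaged 1.75 ± 0.453 FPKM in H1 and 0.677 ± 0.151 in APLNR+ cells, then 14.4 ± 1.26 and 38.1 ± 4.62 in the later populations. Its changes at the last 2 steps were 3.20 ± 0.13 and 1.34 ± 0.13 on the log2 scale (limma adjusted p 1.51e-09 and 4.76e-06), and its near twin STAT5B gave 0.88 and 0.34, neither called. JAK1, a kinase of gp130, rose from 5.67 ± 0.648 to 26.0 ± 5.22 FPKM at the step where IL6ST fell. JAK3, the kinase that works with IL2RG, went from 0.416 ± 0.0210 FPKM in APLNR+ to 4.02 ± 0.463 and then 13.5 ± 1.07. JAK2, the kinase that EPOR, CSF2RB and CSF3R depend on, was the lowest of the 4 kinases in CD43+ at 2.04 ± 0.428 FPKM and was not called at any step (0.51, -0.61 and 0.84 on the log2 scale). STAT3, used by gp130 and CSF3R, rose from 12.1 ± 1.11 to 31.7 ± 3.84 FPKM between APLNR+ and CD31+CD34+ cells.

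**Figure D4:**
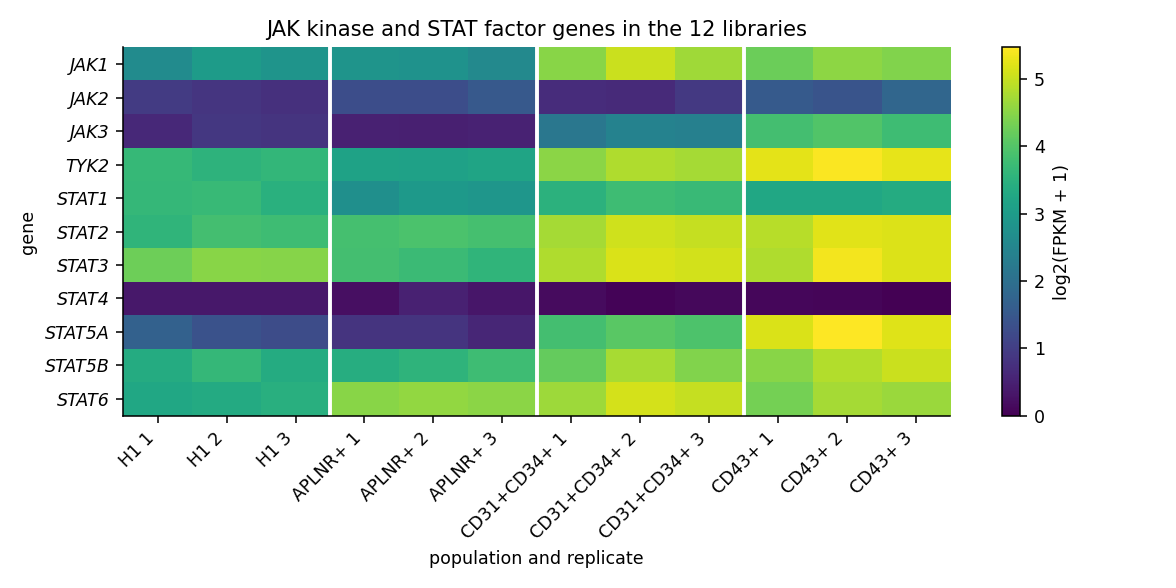
Levels of the 4 JAK kinase and 7 STAT factor genes as log2(FPKM + 1) in each of the 12 libraries, columns grouped by population with white lines between them. STAT5A, JAK3 and TYK2 brighten from APLNR+ to CD31+CD34+ to CD43+, JAK1 brightens in CD31+CD34+, and JAK2 and STAT4 stay dark.

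At the first step 1 of the 10 JAK and STAT genes was raised (STAT6, 9.25 ± 0.643 to 22.2 ± 0.674 FPKM) and 0 were lowered (1 with a pseudocount of 0.1), and at the last step 2 were raised (2 to 3) and 0 lowered. Between CD43+ and H1, 7 were raised (7 to 8) and 0 lowered, with a median of 1.35 against -0.10 for all genes.

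Of 18 ligand genes 5 passed the filter, and IL3 and IL5 were listed at 0 in every library. At the 3 consecutive steps 1, 1 and 0 were raised (0 to 3, 1 to 2 and 0) and 0, 0 and 2 lowered (0, 0 and 1 to 5). IL11, a gp130 ligand, rose from 0.523 ± 0.189 FPKM to 2.36 ± 0.741 at the first step (log2 change 1.13, and 0.96 without APLNR+ replicate 2) and fell from 3.31 ± 0.775 in CD31+CD34+ to 0.266 ± 0.0735 in CD43+. CLCF1, another gp130 ligand, averaged 1.52 ± 0.149 FPKM in CD31+CD34+ and 0.219 ± 0.0778 in CD43+. It reached 1 FPKM only in CD31+CD34+, so the filter required a difference there. Nothing is read from its place among the 2 lowered. CSF1, the ligand of CSF1R, rose from 0.656 ± 0.151 to 3.23 ± 0.177 FPKM between APLNR+ and CD31+CD34+ cells. Between CD43+ and H1 0 ligand genes were called, and 0 to 1 under the alternatives. Of the other receptor chains, 19 of 34 were tested, and 5, 3 and 2 were raised (5 to 6, 2 to 7 and 1 to 2) and 1, 2 and 4 lowered (0 to 1, 1 to 2 and 3 to 6) at the 3 consecutive steps. CSF1R, the M-CSF receptor, averaged 0.231 ± 0.203 FPKM in CD31+CD34+ and 4.84 ± 0.262 in CD43+. CSF1R reached 1 FPKM only in CD43+, and IL21R, the interleukin 21 receptor, only in CD31+CD34+. The filter required differences there, so nothing is read from their places in the counts of other receptor chains.

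The adaptor and relay genes had 15 of 15 tested, with 2, 4 and 3 raised (2 to 3, 3 to 4 and 3 to 4) and 1, 2 and 0 lowered (1 to 3, 2 to 4 and 0 to 1) at the consecutive steps. VAV1, an exchange factor of blood cells, rose from 0.0555 ± 0.0394 FPKM in APLNR+ to 13.5 ± 1.16 and then 49.2 ± 3.30, and BTK, a kinase of blood cells, was raised at both steps, from 1.25 ± 0.637 to 65.3 ± 10.9 in the end. SYK, another kinase, rose from 0.497 ± 0.155 to 7.09 ± 1.31 FPKM at the last step. Outside CD43+ it reached 1 FPKM only in H1 replicates 2 and 3, so its entry into the test rested on CD43+. The inhibitors had 19 of 20 tested, with 2, 3 and 1 raised (1 to 4, 1 to 4 and 1 to 2) and 0, 4 and 2 lowered (0, 4 to 5 and 2 to 3). SOCS3, which binds gp130, CSF3R and EPOR and blocks their JAKs, rose with IL6ST from H1 (15.9 ± 1.09 FPKM) to APLNR+ (38.9 ± 4.04), stood at 65.5 ± 5.95 in CD31+CD34+ and fell to 18.8 ± 1.11 in CD43+, where IL6ST rose. PTPN6, a phosphatase that acts on EPOR and KIT, rose from 7.94 ± 0.821 to 50.1 ± 5.14 FPKM at that last step. SOCS1 fell from 9.18 ± 1.93 FPKM in APLNR+ to 1.15 ± 0.0641 in CD31+CD34+.

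Of the genes known as targets of this signalling, 15 of 16 were tested, with 5, 5 and 2 raised (5 to 6, 4 to 5 and 2) and 1, 2 and 4 lowered (1 to 2, 2 to 3 and 4). FOS and EGR1, early response genes, rose at the first step, FOS from 5.86 ± 0.444 to 87.4 ± 3.28 FPKM and EGR1 from 0.276 ± 0.0423 to 10.3 ± 0.107. BCL2L1, a survival gene that STAT5 drives in red cell precursors, rose from 14.8 ± 2.16 FPKM in APLNR+ to 101 ± 18.0 in CD31+CD34+, while PIM1 and EGR1 fell by 1.34 and 1.44 on the log2 scale. IRF1 and CCND1 rose at the same step and fell at the next, CCND1 from 152 ± 13.8 to 18.4 ± 1.45 FPKM. The list is of genes that many pathways share. For the consecutive steps the list medians were 0.43, 0.50 and -0.22 on the log2 scale, against -0.12, -0.01 and -0.00 for all genes.

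The genes whose course over the 12 libraries was most like that of each called receptor were ranked by the root mean square difference of centred log2(FPKM + 1) values, over 14839 genes. The closest to EPOR were RAB11FIP5 (0.0889), ZER1 (0.0920) and YIF1B (0.0926), where EPOR itself varied by 0.484 about its mean. CSF2RB was matched by TTR (0.113), CSF1R (0.122) and PLCG2 (0.129), against 0.980 for its own variation. CSF1R, the receptor for M-CSF, also stood at 0.0161, 0.0243, 0.231 and 4.84 FPKM along the 4 populations, close to the means of CSF2RB. CSF2RB, CSF1R and TTR, the last at 0.205 FPKM or less on average elsewhere, entered the ranking only through CD43+. The filter required a rise there of each, so nothing is read from their likeness. CSF3R was matched by GSTA1 (0.257), LDLRAD4 (0.280) and SLC40A1 (0.295), each present in APLNR+, lower in CD31+CD34+ and highest in CD43+. For IL6ST the closest were FREM1 (0.316), EGF (0.364) and DUSP10 (0.381), with FREM1 at 0.851, 15.0, 2.24 and 5.28 FPKM along the populations. The differences were larger for CSF3R and IL6ST than for EPOR and CSF2RB. CSF3R and IL6ST also varied more about their own means, by 1.28 and 1.27, so the raw differences do not rank how close the matches were.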

How the data were processed

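RNA was measured in 12 libraries: H1, APLNR+, CD31+CD34+ and CD43+ cells, 3 each, with groups and replicate numbers from the sample titles. Per the labels, Trizol was used for the RNA and a TruSeq kit for the libraries. The authors deposited 1 table of FPKM values. The submitters' processing notes name the hg19 build and BWA, Bowtie and RSEM, without versions or roles, and the annotation, strand setting and any scaling are not given in the sources used here. Which of the 2 companies named in the paper sequenced which library is not given, so that batch was not analysed.

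Of 58366 lines, 1 held text and was left out, and 345 symbols on more than 1 line were represented by their line of highest mean. Values were transformed as log2(FPKM + 1). A limma 3.58.1 model in R 4.3.3 (eBayes with trend) held the 4 populations and 14840 genes at 1 FPKM or more in at least 3 libraries, with Benjamini-Hochberg adjustment. The log2 ratio of IL6ST to IL6R, and no other value, was tested by exact permutation of libraries between populations. The fit was tested on simulated data. Members, gene lists and tests were chosen with earlier results of these data known. Named were all members, the 4 JAK kinases with STAT3, STAT5A and STAT5B, the 3 called genes with the largest change of each list and comparison, and the 3 genes of most like course per called member. Some genes that this rule names are not reported here. Gene lists were written from general knowledge. Motifs were searched in RefSeq promoters. Alternatives were a pseudocount of 0.1, no filter, no minimum change, summed lines, 3 scalings, no trend, fits to the compared populations, the replicate number as a block, replicates 2 and 3 alone, and leaving out each library. Pathway lists under these alternatives and replicate 1 alone were added after the data were seen. Tables were made in Python 3.11.15 (pandas 2.3.3, numpy 2.4.6), exact tests with scipy 1.17.1 and figures with matplotlib 3.10.9.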

Additional observations from a re-analysis of the deposited data

How the results depend on the processing

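Of 424 member changes recomputed under the alternatives, 414 kept their direction and their side of the threshold. Many of these settings leave the log2 change as it was, so that only the adjusted p could move. Among them are no trend, no filter, the replicate block, fits to the compared populations and leaving out a library of another population. The count is therefore not a measure of robustness. The number of receptors called from APLNR+ to CD31+CD34+ was 4 without a minimum change, in place of 2, and 1 to 2 when single libraries were left out (1 without APLNR+ replicate 3 or CD31+CD34+ replicate 2, where EPOR fell under 2-fold). From CD31+CD34+ to CD43+ it was 1 to 3 when single libraries were left out. It was 1 without CD43+ replicate 3, where CSF2RB left the test and IL6ST fell under 2-fold. Without a minimum change EPOR also passed at that step (limma adjusted p 0.000507). So did IL6R from H1 to APLNR+ (limma adjusted p 0.0386) and EPOR in CD43+ against H1 (limma adjusted p 8.31e-05). CSF2RB from APLNR+ to CD31+CD34+ was called (1.90) with a pseudocount of 0.1. The change of IL6R from APLNR+ to CD31+CD34+, -0.02, turned to 0.088 with quantile normalization and 0.073 in replicates 2 and 3 alone, and ran from -0.11 to 0.084 when single libraries were left out (0.0070 without APLNR+ replicate 3, 0.084 without CD31+CD34+ replicate 1). Its change from CD31+CD34+ to CD43+, -0.10, turned to 0.28 in replicate 1 alone and ran from -0.20 to 0.036 (the latter without CD43+ replicate 2). The causes were not tested beyond the samples left out. With quantile normalization the median change of all genes between CD43+ and H1 went from -0.10 to 0.02, and the 3 receptors called there, CSF2RB among them, were called in both.

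The populations share only replicate numbers, which no label ties to a culture. Deviations of same-numbered libraries correlated between -0.0214 and 0.429 over 18 pairs, and those of different number between -0.404 and 0.289 over 36 pairs. The 6 pairs of replicate 1 lay between 0.196 and 0.429, so replicate 1 libraries shared a deviation across populations. The pairs of replicate 2 lay between 0.0254 and 0.247 and those of replicate 3 between -0.0214 and 0.269. With the replicate number as a block, 2, 2, 3 and 3 receptors were called in the 4 comparisons, as without it, and the adjusted p of EPOR from H1 to APLNR+ was 0.0404. FLT3 and IL7R never reached 1 FPKM, and the number of reads behind them is unknown.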

Other observations

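KIT, the receptor for stem cell factor and a tyrosine kinase like FLT3, was called lowered from H1 (5.59 ± 0.755 FPKM) to APLNR+ (2.06 ± 0.523), by 1.11 on the log2 scale (limma adjusted p 2e-04; 0.98 without APLNR+ replicate 1, under the 2-fold limit), and stood at 4.71 ± 0.534 and 4.23 ± 1.19 FPKM in the later populations. It was chosen after its values were seen. Its ligand gene KITLG ran from 1.82 ± 0.107 FPKM in H1 through 2.99 ± 0.163 and 2.38 ± 0.512 to 1.04 ± 0.143 in CD43+. EPO, the ligand of EPOR, averaged 0.325 ± 0.105 FPKM in H1 and read 0 to 0.0138 FPKM in CD43+.

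PTPRC, which encodes the pan-leukocyte phosphatase CD45, read 0 to 0.521 FPKM in CD43+ cells, with the mean at 0.197 ± 0.283. SPI1, a myeloid transcription factor, averaged 12.8 ± 1.72 FPKM there, while CEBPA, another, averaged 0.591 ± 0.175. Of the 13 myeloid markers, 6 averaged 1 FPKM or more in CD43+. PIM1, a target of STAT factors, peaked in APLNR+ cells at 38.4 ± 5.05 FPKM and averaged 7.37 ± 0.471 in CD43+ cells. PTPRC, CEBPA and PIM1 were also picked after their values were seen.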
